A study of Homo sapiens with 12 samples.

Results

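GAS1 and the Hedgehog signalling pathway were examined through 9 genes of the count table of this series, out of 62757 genes in all. The members were found by their symbols: the surface co-receptors GAS1, BOC and CDON, the receptor PTCH1, the membrane transducer SMO, the inhibitor SUFU and the transcription factors GLI1, GLI2 and GLI3. GAS1 was selected on its difference between the groups, which was known from an earlier look at these data, so its values are given as a description with no test. The other 8 members were taken as its partners in the pathway.

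Hedgehog proteins are secreted, lipid-carrying signals that pattern the embryo, the eye included. In their absence PTCH1 holds SMO inactive, and SUFU keeps the GLI factors out of the nucleus or lets GLI3 be cut into a repressor. GAS1, BOC and CDON present the ligand to PTCH1, which then releases SMO at the primary cilium, and full-length GLI factors switch on their targets, PTCH1 and GLI1 among them. GAS1 is anchored to the membrane by a lipid, was named as a growth arrest-specific gene of resting fibroblasts, and is related in structure to the co-receptors of the GDNF family.

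The samples were ARPE-19 cells, an established human line of retinal pigment epithelium, and every group had been treated with 3 µM fenretinide, the synthetic retinoid N-(4-hydroxyphenyl)retinamide, for 120 h. There were 4 groups of 3 libraries: cells transduced with AAV9-AIPL1co, an adeno-associated vector with a codon-optimised AIPL1 sequence, with AAV9-AIPL1wt, the same gene in its native sequence, or with AAV9-GFP, and non-transduced control cells. AIPL1 is a co-chaperone of photoreceptors. All libraries came from 1 cell line, and where the labels do not say that the replicates are separate cultures, p-values measure only the spread between libraries.

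The libraries held 6322811 to 9075660 gene counts. Control replicate 1 was left out of the fit, which leaves 2 control libraries, both from the later of 2 file dates, while each transduced group has libraries of both dates. The study had left out the same library. Of the GFP vector entries, GFP_CBg was counted 2, 1 and 4 times in the 3 AAV9-GFP libraries and 0 times elsewhere. The entry GFPg was at 0 in every library. Reads of the AIPL1co vector were counted 11, 13 and 19 times in the 3 AAV9-AIPL1co libraries and 0 times elsewhere, whereas the AIPL1wt vector entry was at 0 in every library and the AIPL1 gene had at most 1 count. Reads that this vector shares with the AIPL1 gene would not have been counted for either, so the AAV9-AIPL1wt label could not be checked from these counts. Of 14 markers of retinal pigment epithelium, 7 passed the filter on low counts. RPE65, TYR and DCT were at 0 in all 12 libraries, while OTX2 stood at 422 to 664 normalized counts. The 4 leukocyte markers summed to at most 7.82 normalized counts in a library of the fit, and the 6 photoreceptor markers to at most 17.1. The marker sums moved with the groups, and their part in the results was not tested. The markers named as higher or lower had an adjusted p under 0.05 in edgeR's quasi-likelihood test. The pigment epithelium markers summed to 7230 and 8441 normalized counts in the control, 6160 to 7365 with AAV9-GFP, 5598 to 6144 with AAV9-AIPL1wt and 3713 to 4010 with AAV9-AIPL1co. Such a sum follows the genes with most counts. Over the 7 tested markers the median log2 fold change against the control was -0.07 with AAV9-AIPL1co and -0.37 with AAV9-AIPL1wt. With AAV9-AIPL1co, 3 of the 7 were not called. The keratins KRT8 and KRT18 fell by 1.20 and 1.22 on the log2 scale with AAV9-AIPL1co against control and by 0.50 and 0.36 with AAV9-AIPL1wt, and with AAV9-AIPL1co the pigment cell factor MITF fell by 0.56 and the retinoid carrier RLBP1 rose by 1.21. Of 6 neuron markers, NEFL and NEFM were at 0 and 2 were tested, of which the tubulin TUBB3 fell by 1.65 and 1.45 with the codon-optimised and native vectors and MAP2 by 0.65 with the native one. Their sums were 469 and 609 in the control, 367 to 452 for AAV9-GFP, 272 to 376 for AAV9-AIPL1wt and 309 to 674 for AAV9-AIPL1co. Of 6 fibroblast markers, 4 were tested and COL1A2 and THY1 had at most 0.951 normalized counts in a library. The collagen COL1A1 rose by 2.31 with AAV9-AIPL1co, 1.97 with AAV9-AIPL1wt and 0.93 with AAV9-GFP, the actin ACTA2 fell by 2.48 with AAV9-AIPL1wt, and vimentin, VIM, fell by 0.37 and 0.18 with the AIPL1 vectors. The AAV9-GFP rise in COL1A1 had an adjusted p of 0.0454 in edgeR's test, and limma voom called 0 fibroblast markers higher there. Without control replicate 3, 0 of all genes were called in that comparison. Control replicate 1, outside the fit, had 168 normalized counts of COL1A1, more than 2-fold the higher of the other control libraries. The fibroblast sums, mostly VIM, were 18909 and 19140 in the control, 18989 to 20014 for AAV9-GFP, 16348 to 16991 for AAV9-AIPL1wt and 14688 to 14996 for AAV9-AIPL1co. In bulk RNA, fewer cells of a type and less RNA per cell cannot be told apart.

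PTCH1 and GLI1 are themselves targets of the GLI factors, so the letters that these factors read were looked for near the transcript starts. The 9-letter GLI sequence GACCACCCA was searched on both strands in 35116 RefSeq windows of GRCh38.p14, each from 250 bases before to 50 bases after a start, and 0.236% of the windows held it. GAS1, PTCH1, GLI2, SMO, SUFU, BOC and CDON matched the window table by symbol, with 15 windows. GLI1 and GLI3 had no entry. An exact match was found in 1 of these windows, upstream of a PTCH1 start, and PTCH1 also had a site with 1 mismatch, a class that 6.74% of all windows reach. Both sites are shown on the strand of PTCH1 with the matching stretch in capitals.
PTCH1 exact match: gttgcctaccTGGGTGGTCtctctacttt
PTCH1 site with 1 mismatch: cagggaaggcGAGCACCCAgacgggggcc
The exact site is at chr9:95509420-95509448, carries the sequence in reverse orientation 172 bases before the start of that transcript, and lies in an intron of the 6 annotated PTCH1 transcripts that span it. The site with 1 mismatch is at chr9:95507393-95507421 and is spanned by 10 transcripts, in an untranslated exon stretch of 1 and an intron of 9. A match describes the letters in these windows and does not show binding.

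GAS1 was high in the AAV9-AIPL1co libraries and low everywhere else. Its normalized counts, which are counts scaled to a common library size, were 104, 119 and 111 with AAV9-AIPL1co (mean 111 ± 7.29, SD, n = 3). They were 13.1, 12.6 and 7.55 with AAV9-AIPL1wt, 12.3, 20.9 and 18.9 with AAV9-GFP, and 12.2 and 13.2 in the control. The lowest AAV9-AIPL1co library was above every other library, and the other 3 groups overlapped with each other. In raw counts these were 112, 125 and 99 reads with AAV9-AIPL1co against 7 to 22 reads in the other libraries of the fit.

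The fitted GAS1 level with AAV9-AIPL1co was 8.65-fold that of the control, a log2 fold change of 3.11 ± 0.26 (SE). It was 6.34-fold that with AAV9-GFP (2.67 ± 0.21, SE) and 9.97-fold that with AAV9-AIPL1wt (3.32 ± 0.24, SE). With AAV9-AIPL1wt the log2 fold change against the control was -0.20 ± 0.36 (SE), and with AAV9-GFP it was 0.45 ± 0.32 (SE), both of the order of their errors. With all 12 libraries in the fit these were 0.21 ± 0.40 and 0.84 ± 0.37 (SE), and with the file date as a further term 0.32 ± 0.40 and 0.95 ± 0.37 (SE). Within the libraries of the earlier file date, the differences of AAV9-AIPL1co from AAV9-GFP and AAV9-AIPL1wt were 2.84 ± 0.27 and 3.48 ± 0.31 (SE). Control replicate 1, outside the fit, had 4.09 normalized counts of GAS1.

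**Figure D1:**
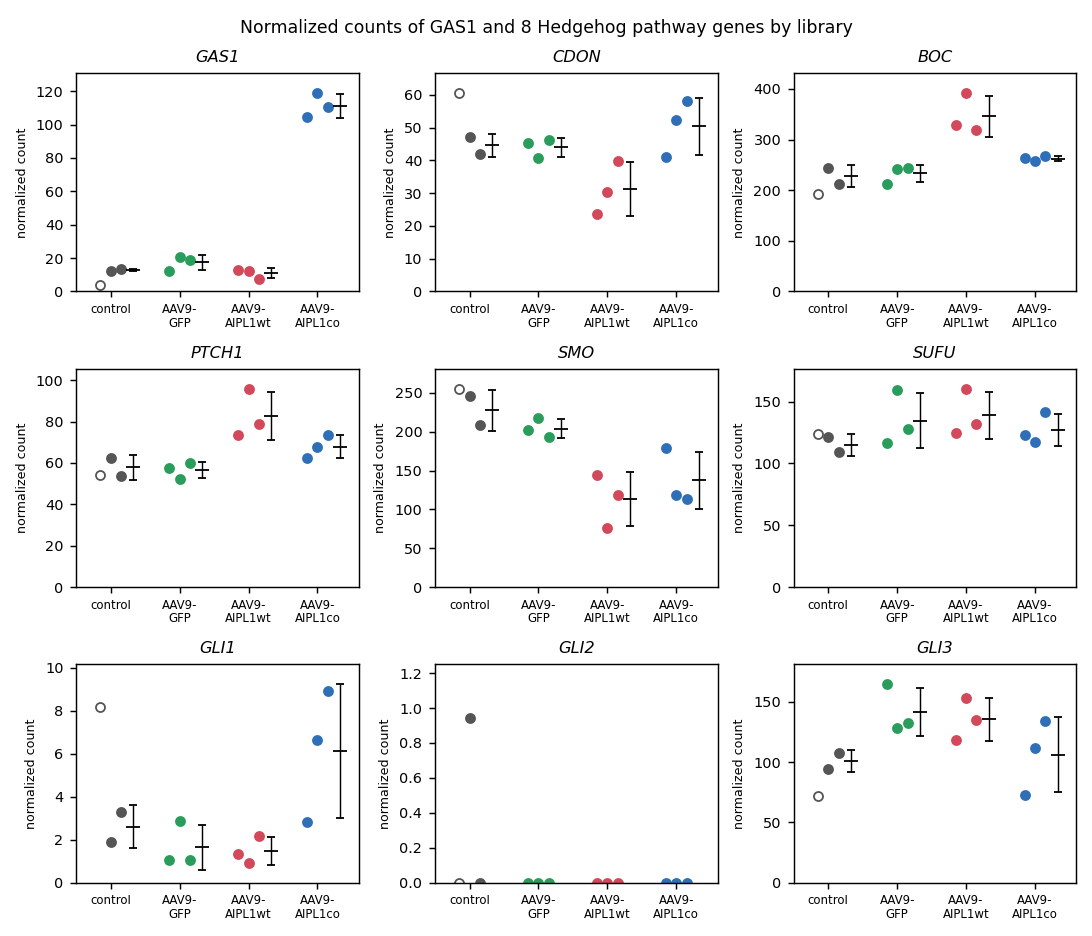
Normalized counts (vertical axes, linear, from 0) of GAS1 and the 8 partners in each library of the 4 groups. Filled points are libraries of the fit, the open point is control replicate 1, which was left out, and bars show the mean ± SD of the filled points except for GLI2, which had 1 read in all. The 3 AAV9-AIPL1co libraries sit between 104 and 119 for GAS1, and no other library is above 20.9.

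GAS1 lies on chromosome 9 of GRCh38 from 86944362 to 86947506 on the minus strand and has 1 exon of 3145 bases (Gencode 44, ENSG00000180447). GAS1RR, a non-coding gene that begins 1123 bases from it on the opposite strand, had 2 counts over all 12 libraries. They were 1 each in AAV9-AIPL1co replicates 1 and 2, too few for a comparison. Of the neighbours of GAS1, those tested differed less. The nearest genes with enough counts to be tested were TUT7, 589908 bases away, with a log2 fold change of 0.24 between AAV9-AIPL1co and control (adjusted p = 0.173), and the pseudogene CDC20P1, 64146 bases away on the other side, with -0.41 (adjusted p = 0.661). TUT7 was higher than with AAV9-GFP by 0.47 for AAV9-AIPL1co (adjusted p = 0.0109) and by 0.49 for AAV9-AIPL1wt (adjusted p = 0.0049), and between the AIPL1 vectors it differed by -0.02 (adjusted p = 0.927). The libraries carry no strand, and 45.7% of the GAS1 reads lay on the gene's own strand, so reads of an overlapping antisense transcript could not be told from those of GAS1.

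The genes whose log2 CPM, counts scaled to a fixed library total, followed GAS1 most closely over the 11 libraries, which share 1 cell line and differ in vector, were DISC1FP1, CBLB, CDIP1, FOXQ1 and CEP250. Pearson's r was 0.982 for DISC1FP1, a non-coding gene, 0.979 for CBLB, a ubiquitin ligase, and 0.975 for CDIP1, a target of p53. It was 0.973 for the forkhead factor FOXQ1 and 0.968 for CEP250, a protein of the centrosome. These are descriptions of the libraries with no test, since any gene that is high in the 3 AAV9-AIPL1co libraries scores well. Their log2 fold changes between AAV9-AIPL1co and control were 2.28, 1.20, 0.49, 2.46 and 1.13 in the same order. With control replicate 1 added, r fell to 0.566 for DISC1FP1, which had 99.1 normalized counts in that library, and to 0.816 for CBLB.

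**Figure D2:**
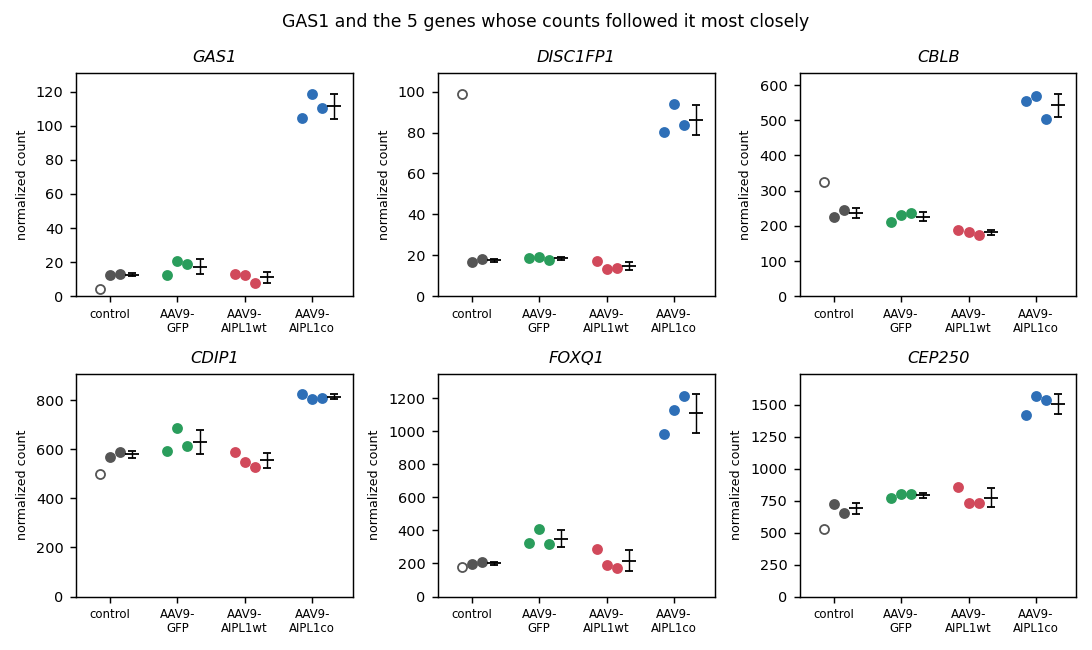
Normalized counts (vertical axes, linear, from 0) of GAS1 and the 5 genes most alike in pattern, by group, with the open point for control replicate 1 and bars for the mean ± SD of the libraries of the fit. In each panel the 3 AAV9-AIPL1co libraries lie above the other libraries of the fit, and DISC1FP1 in control replicate 1 stands at 99.1.

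The partners did not all move in 1 direction. Of the 8 partners, 6 passed the filter on low counts and were tested with edgeR's quasi-likelihood test, with p-values adjusted over all 13896 genes tested and called at 0.05. GLI1 and GLI2 were too low. Against the control, AAV9-AIPL1co had 0 of 6 partners higher, where 22.4% of all genes were called higher, and 1 lower, where 24.5% were called lower. AAV9-AIPL1wt had 2 higher and 1 lower, beside 26.4% and 30.0% of all genes. AAV9-GFP had 0 higher and 0 lower, beside 2.30% and 6.66%, and DESeq2 and limma voom also called 0 there. At an unadjusted p under 0.05, edgeR, DESeq2 and limma voom each had 1 higher. For AAV9-AIPL1co, 0 were higher also at an unadjusted p under 0.05 and by DESeq2 and limma voom, both here and against AAV9-GFP. The 3 comparisons with the control share its libraries.

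Between the vectors the counts were similar. AAV9-AIPL1co against AAV9-GFP had 0 partners higher and 1 lower, where 16.1% and 14.8% of all genes were called in these directions. AAV9-AIPL1wt against AAV9-GFP had 2 higher and 1 lower, beside 25.6% and 25.5%. AAV9-AIPL1co against AAV9-AIPL1wt had 1 higher and 1 lower, beside 22.3% and 19.3%. In a list of 6 genes 1 gene is 16.7%, so these counts cannot be told from the background shares. DESeq2 called 0 partners higher in AAV9-AIPL1co against AAV9-AIPL1wt and 1 higher in AAV9-AIPL1wt against control.

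**Figure D3:**
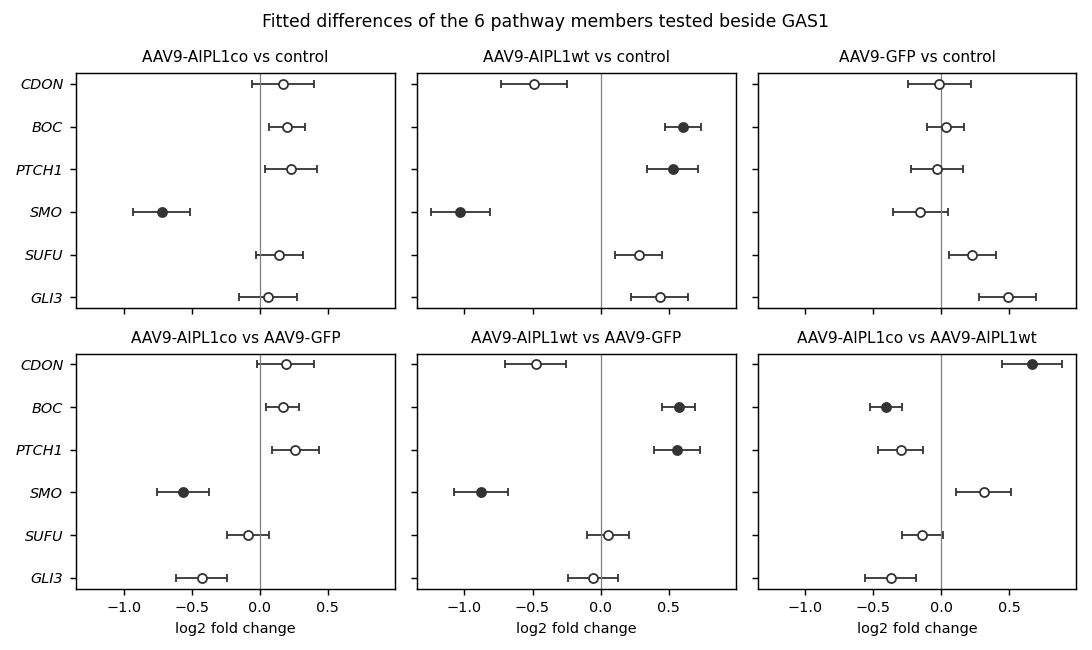
Fitted log2 fold changes (horizontal axes) with their standard errors (bars) of the 6 partners tested, in the 6 comparisons of groups. Filled points have an adjusted p under 0.05: SMO lies to the left of 0 in the 4 comparisons of an AIPL1 vector with AAV9-GFP or control, from -0.57 to -1.03, and BOC lies to the right of 0 where AAV9-AIPL1wt is compared with AAV9-GFP or control, at 0.57 and 0.60.

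BOC, a co-receptor of the immunoglobulin superfamily that binds Hedgehog ligands beside GAS1, rose with AAV9-AIPL1wt. Its normalized counts were 328, 392 and 318 for AAV9-AIPL1wt, 263, 257 and 267 for AAV9-AIPL1co, 213, 242 and 244 for AAV9-GFP, and 244 and 213 in the control. Each AAV9-AIPL1wt library was above every other library. The log2 fold change was 0.60 ± 0.13 (SE) against the control (adjusted p = 0.000859) and 0.57 ± 0.12 (SE) against AAV9-GFP (adjusted p = 0.000592). AAV9-AIPL1co was lower than AAV9-AIPL1wt by -0.40 ± 0.12 (SE, adjusted p = 0.0103). In the libraries of the earlier file date that last difference was -0.32, with an adjusted p of 0.0661, and the difference of AAV9-AIPL1wt from AAV9-GFP was 0.48 (adjusted p = 0.00474). AAV9-AIPL1co differed from the control by 0.20, with a 95% interval from -0.06 to 0.46.

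CDON, the close relative of BOC, went the other way in the AAV9-AIPL1wt libraries. It had 23.6, 30.5 and 39.9 normalized counts for AAV9-AIPL1wt, 41.0, 52.3 and 58.1 for AAV9-AIPL1co, 45.3, 40.8 and 46.2 for AAV9-GFP, and 47.1 and 42.1 in the control. The highest AAV9-AIPL1wt library was just under the lowest of the others. AAV9-AIPL1co was higher than AAV9-AIPL1wt by 0.66 ± 0.22 (SE, adjusted p = 0.0216), and by 0.75 (adjusted p = 0.0398) in the earlier file date alone. This call was lost with control replicate 1 in the fit (adjusted p = 0.0629), with DESeq2 (adjusted p = 0.0654) and without any of 4 single libraries, AAV9-AIPL1wt replicate 1 or 2 or AAV9-AIPL1co replicate 2 or 3 (adjusted p = 0.0561 to 0.0941). Against the control and AAV9-GFP, the AAV9-AIPL1wt differences of -0.49 and -0.48 did not pass (adjusted p = 0.0944 and 0.0854). The difference from the control passed with all 12 libraries (adjusted p = 0.0434), with the file date as well (adjusted p = 0.0215) and without AAV9-AIPL1wt replicate 3 (adjusted p = 0.0458), and that from AAV9-GFP passed without the same replicate (adjusted p = 0.0368).

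PTCH1, the Hedgehog receptor and a direct target of the pathway, rose with AAV9-AIPL1wt. Its normalized counts were 73.5, 95.9 and 78.8 for AAV9-AIPL1wt, 62.4, 67.5 and 73.7 for AAV9-AIPL1co, 57.6, 52.2 and 59.8 for AAV9-GFP, and 62.2 and 53.6 in the control. The AAV9-AIPL1wt libraries were above those of AAV9-GFP and control and overlapped with AAV9-AIPL1co. The log2 fold change was 0.53 ± 0.19 (SE) against the control (adjusted p = 0.0221) and 0.56 ± 0.17 (SE) against AAV9-GFP (adjusted p = 0.00994). AAV9-AIPL1co, where GAS1 was high, differed from the control in PTCH1 by 0.23, with a 95% interval from -0.14 to 0.60, and from AAV9-GFP by 0.26, with an interval from -0.08 to 0.60.

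The PTCH1 calls were close to the threshold. Without AAV9-AIPL1wt replicate 2 the adjusted p was 0.0812 against the control, and for the comparison with AAV9-GFP it was 0.0537. Without control replicate 3 it was 0.154 against the control. With GC offsets, library size scaling, no filter or DESeq2 the adjusted p against the control was 0.0537 to 0.0627. In the earlier file date alone the difference from AAV9-GFP was 0.36 (adjusted p = 0.184).

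SMO, the membrane protein that passes the signal on once PTCH1 lets go of it, fell with both AIPL1 vectors. It had 179, 119 and 114 normalized counts with AAV9-AIPL1co and 144, 76.2 and 119 with AAV9-AIPL1wt. It had 202, 217 and 193 with AAV9-GFP, and 246 and 209 in the control. Every library with an AIPL1 vector was below every AAV9-GFP and control library, and the AIPL1 groups overlapped with each other. AAV9-AIPL1wt had a log2 fold change of -1.03 ± 0.21 (SE) against the control (adjusted p = 0.000512) and -0.88 ± 0.20 (SE) against AAV9-GFP (adjusted p = 0.00126).

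AAV9-AIPL1co had a log2 fold change of -0.72 ± 0.21 (SE) in SMO against the control (adjusted p = 0.00858), which was -0.58 (adjusted p = 0.0966) without control replicate 2. Against AAV9-GFP it was -0.57 ± 0.19 (SE, adjusted p = 0.0312). That call did not hold with control replicate 1 in the fit (adjusted p = 0.0843), or without any 1 of the AAV9-GFP libraries or AAV9-AIPL1co replicate 2 or 3 (adjusted p = 0.0548 to 0.142), and in the earlier file date alone the difference was -0.79 (adjusted p = 0.000317). AAV9-AIPL1wt against AAV9-GFP was -0.61 (adjusted p = 0.00246) in the earlier date. The AIPL1 vectors differed from each other by 0.31, with a 95% interval from -0.09 to 0.71, and by -0.18 (adjusted p = 0.441) in the earlier date alone. Control replicate 1 had 255 normalized counts of SMO.

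SUFU, which binds and restrains the GLI factors, stayed within a narrow range, from 109 to 161 normalized counts over the libraries of the fit. It had 123, 117 and 142 with AAV9-AIPL1co, 125, 161 and 132 with AAV9-AIPL1wt, 116, 159 and 128 with AAV9-GFP, and 121 and 109 in the control. All 4 groups overlapped except that the AAV9-AIPL1wt libraries were above both control libraries. No comparison passed the test, and the 95% interval for AAV9-AIPL1co against control ran from -0.20 to 0.48 around 0.14.

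GLI3, the factor that serves mainly as the pathway's repressor, was the GLI gene with most reads. Its normalized counts were 72.7, 111 and 134 with AAV9-AIPL1co, 118, 153 and 135 with AAV9-AIPL1wt, 165, 128 and 132 with AAV9-GFP, and 94.2 and 107 in the control. The AAV9-GFP and AAV9-AIPL1wt libraries were above the control, and the AAV9-AIPL1co libraries spread over both. The differences from the control were 0.06 with AAV9-AIPL1co (adjusted p = 0.833), 0.43 with AAV9-AIPL1wt (adjusted p = 0.0865) and 0.49 with AAV9-GFP (adjusted p = 0.138). The AAV9-AIPL1wt difference passed with control replicate 1 in the fit, at 0.61 (adjusted p = 0.0330), and without AAV9-AIPL1wt replicate 1 (adjusted p = 0.0352) or AAV9-AIPL1co replicate 1 (adjusted p = 0.0289).

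GLI1, the activator whose own gene is the usual readout of Hedgehog signalling, was scarce. It had 3, 7 and 8 reads with AAV9-AIPL1co, 1, 1 and 2 with AAV9-AIPL1wt, 1, 3 and 1 with AAV9-GFP, and 2 and 4 in the control, and it was too low to be tested. The AAV9-AIPL1co counts lay at or above most others but overlapped with the control, and control replicate 1 had 10 reads. GLI2 had 1 read in the whole series, in control replicate 2, so its level was under what this depth can show.

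Per kilobase of exon, which allows a rough comparison between genes, GAS1 went from the middle of the members to the top. The length was that of all annotated exons of a gene together, 3145 bases for GAS1 and 17281 for PTCH1. It can exceed the length of the transcripts made, so the order of the genes is approximate. In the control the order was SMO at 6.19 ± 0.712 CPM per kilobase (mean ± SD, n = 2), BOC at 2.86 ± 0.274, SUFU at 2.17 ± 0.167 and GLI3 at 0.944 ± 0.0869. GAS1 at 0.523 ± 0.0280, PTCH1 at 0.433 ± 0.0451 and CDON at 0.289 ± 0.0229 followed, with GLI1 at 0.0735 ± 0.0284. With AAV9-AIPL1co, GAS1 was at 4.57 ± 0.30 (n = 3), within the spread of SMO at 3.74 ± 0.984, and SMO was within its spread of BOC at 3.28 ± 0.0640. With AAV9-AIPL1wt, BOC led at 4.33 ± 0.50, followed by SMO at 3.08 ± 0.937 and SUFU at 2.61 ± 0.357, which did not differ beyond their spread, and GAS1 was at 0.455 ± 0.126, below PTCH1 at 0.619 ± 0.0879. With AAV9-GFP the order of the first 5 was that of the control, and GAS1 was at 0.714 ± 0.183. Reads that several genes share were not counted, which can lower some genes more than others.

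The wider pathway was read from 78 Hedgehog genes by role, GAS1 not included, of which 57 passed the filter and 8 had no count in the 11 libraries. Against the control, 14 were higher and 12 lower with AAV9-AIPL1co. The same counts were 16 and 16 after AAV9-AIPL1wt, then 0 and 1 after AAV9-GFP. In shares of the genes tested these were 24.6% and 21.1%, 28.1% and 28.1%, and 0% and 1.75%, close to the shares of all genes given above. The median log2 fold changes were 0.14, 0.13 and 0.07, beside -0.02, -0.04 and 0.01 over all genes. Against AAV9-GFP, 7 were higher and 10 lower with AAV9-AIPL1co, shares of 12.3% and 17.5% beside 16.1% and 14.8% of all genes. AAV9-AIPL1wt had 14 higher and 15 lower than AAV9-GFP, 24.6% and 26.3% beside 25.6% and 25.5%. AAV9-AIPL1co had 13 higher and 10 lower than AAV9-AIPL1wt, 22.8% and 17.5% beside 22.3% and 19.3%. The AAV9-AIPL1co count of 26 against the control was 15 without control replicate 2 and 17 without control replicate 3, and the AAV9-AIPL1wt count of 32 was 21 without control replicate 3. Over all genes the AAV9-AIPL1co calls went from 6508 to 4814 and 4207 in these fits, and the AAV9-AIPL1wt calls from 7828 to 5715.

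**Figure D4:**
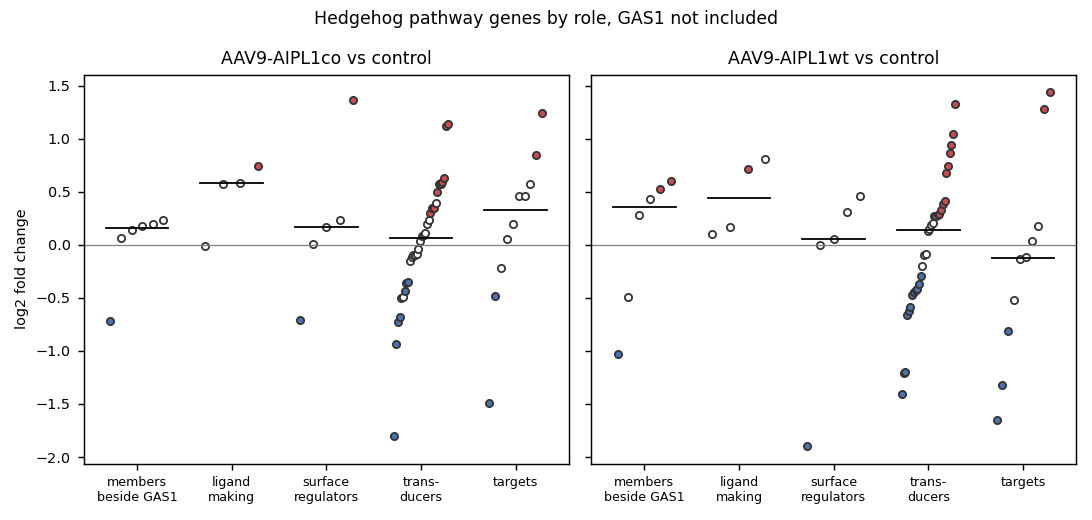
Log2 fold changes (vertical axis) against the control of the 57 Hedgehog genes tested, each a point, grouped by role and ordered by size within a role, with AAV9-AIPL1co on the left and AAV9-AIPL1wt on the right. Red points rose and blue points fell at an adjusted p under 0.05, open points did not pass, and black lines are medians: points of both colours appear among the transducers and the targets with either vector.

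The ligands themselves were almost without reads. SHH had 0 counts in all 12 libraries, and IHH and DHH were too low to be tested, with at most 2.23 and 9.26 normalized counts in a library. Of the 9 genes that make, release or carry the ligand, 4 were tested. HHAT, the acyltransferase that attaches the lipid to Hedgehog proteins, rose by 0.74 ± 0.22 (SE, adjusted p = 0.00939) with AAV9-AIPL1co and by 0.71 ± 0.22 (SE, adjusted p = 0.0106) with AAV9-AIPL1wt against the control. It had 140, 119 and 91.6 normalized counts with AAV9-AIPL1co, 134, 87.9 and 126 with AAV9-AIPL1wt, 101, 77.8 and 83.9 with AAV9-GFP, and 61.2 and 78.4 in the control. Both AIPL1 groups were above the control and overlapped with AAV9-GFP. The exporters DISP1 and DISP2 and the carrier SCUBE3 did not pass in either comparison, with log2 fold changes from -0.01 to 0.81.

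Among the surface regulators, the glypicans, heparan sulphate proteoglycans that can hold or compete for Hedgehog ligands, differed from each other. Of the 9 genes, 5 were tested. GPC4 had 331, 365 and 384 normalized counts with AAV9-AIPL1co, 173, 188 and 155 with AAV9-AIPL1wt, 139, 139 and 127 with AAV9-GFP, and 142 and 137 in the control. As for GAS1, the AAV9-AIPL1co libraries of GPC4 were above every other library. Its log2 fold change was 1.37 ± 0.14 (SE) against the control (adjusted p = 5.66e-07) and 1.06 ± 0.12 (SE) against AAV9-AIPL1wt (adjusted p = 2.61e-06).

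GPC6 fell instead, with 14.4, 9.86 and 18.3 normalized counts for AAV9-AIPL1wt, 34.5, 37.1 and 23.5 for AAV9-AIPL1co, 45.3, 37.0 and 42.0 for AAV9-GFP, and 52.7 and 52.0 in the control. The AAV9-AIPL1wt libraries were the lowest, and both AIPL1 groups were below the control. The log2 fold changes against the control were -1.90 ± 0.28 (SE, adjusted p = 1.68e-05) with AAV9-AIPL1wt and -0.71 ± 0.24 (SE, adjusted p = 0.0218) with AAV9-AIPL1co. DESeq2 called 0 of the surface regulators lower with AAV9-AIPL1co against the control, so it did not make that last call. MOSMO, which lowers SMO at the cell surface, had log2 fold changes of 0.01 (adjusted p = 0.980) with AAV9-AIPL1co and 0.00 (adjusted p = 0.999) with AAV9-AIPL1wt against the control.

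The 32 transducers were all tested, and 10 were higher and 8 lower with AAV9-AIPL1co, and 11 and 11 with AAV9-AIPL1wt, against the control. These are 31.2% and 25% of the list beside 22.4% and 24.5% of all genes, and 34.4% and 34.4% beside 26.4% and 30.0%. SMURF2, a ubiquitin ligase that can act on PTCH1, fell most with AAV9-AIPL1co, where it had 320, 369 and 382 normalized counts, and had 429, 560 and 624 with AAV9-AIPL1wt, against 1235 and 1257 in the control and 861 to 1126 with AAV9-GFP. Both AIPL1 groups lay below all other libraries. The log2 fold changes against the control were -1.80 ± 0.14 (SE, adjusted p = 3.14e-08) and -1.21 ± 0.14 (SE, adjusted p = 1.11e-06).

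The intraflagellar transport genes, which build the cilium where SMO acts, differed by vector. IFT172 had 82.7, 75.3 and 89.5 normalized counts for AAV9-AIPL1wt, 265, 214 and 226 for AAV9-AIPL1co, 203, 234 and 265 for AAV9-GFP, and 224 and 211 in the control. The AAV9-AIPL1wt libraries were apart from the rest, and the others overlapped. The log2 fold change was -1.40 ± 0.16 (SE, adjusted p = 9.86e-07) with AAV9-AIPL1wt and 0.11 ± 0.15 (SE, adjusted p = 0.557) with AAV9-AIPL1co against the control, and AAV9-AIPL1co was higher than AAV9-AIPL1wt by 1.51 ± 0.15 (SE, adjusted p = 5.02e-07). IFT88 fell by 1.20 (adjusted p = 0.000113) with AAV9-AIPL1wt and by 0.50 (adjusted p = 0.0466) with AAV9-AIPL1co. CSNK1E, a casein kinase that phosphorylates GLI and SMO proteins, rose by 1.33 (adjusted p = 6.93e-08) with AAV9-AIPL1wt and by 0.30 (adjusted p = 0.0406) with AAV9-AIPL1co. With AAV9-GFP the 1 gene called was PRKACB, a catalytic subunit of protein kinase A that marks GLI proteins for processing, which was named after its value was seen, at -0.49 (adjusted p = 0.0473). Its adjusted p was 0.160 with the file date as a term, 0.0634 with the replicate block, 0.0597 with relative log expression scaling and 0.889 with GC offsets, where the difference was -0.06, and it was called without AAV9-AIPL1wt replicate 1 or 2 but in none of the other 9 fits that left out a library (adjusted p = 0.0603 to 0.428).

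Of 20 known targets of the pathway in other tissues, PTCH1 and GLI1 not counted, 10 were tested. With AAV9-AIPL1co 2 were higher and 2 lower than in the control, and with AAV9-AIPL1wt 2 were higher and 3 lower. In shares these are 20% and 20% beside 22.4% and 24.5% of all genes, and 20% and 30% beside 26.4% and 30.0%. FOXF2, a forkhead factor of mesenchyme, rose by 1.24 ± 0.15 (SE, adjusted p = 3.38e-06) and 1.28 ± 0.15 (SE, adjusted p = 1.18e-06) with the 2 vectors. FOXL1, its relative, fell by 1.49 ± 0.46 (SE, adjusted p = 0.0129) and 1.65 ± 0.48 (SE, adjusted p = 0.00708), from 8.48 and 14.0 normalized counts in the control. BMP4, a secreted signal, rose by 1.44 ± 0.24 (SE, adjusted p = 7.72e-05) with AAV9-AIPL1wt and had a difference of 0.57 (adjusted p = 0.0637) with AAV9-AIPL1co. The Notch ligand JAG2 fell by 1.32 ± 0.39 (SE, adjusted p = 0.00731) with AAV9-AIPL1wt and had a difference of 0.20 (adjusted p = 0.633) with AAV9-AIPL1co.

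GAS1 takes its name from growth arrest, and several markers of dividing cells were lower with the AIPL1 vectors. Of 10 proliferation markers, 7 fell with AAV9-AIPL1co and 9 with AAV9-AIPL1wt against the control, where 24.5% and 30.0% of all genes were called lower. With AAV9-GFP 2 fell, TOP2A by 0.75 (adjusted p = 0.0499) and BUB1 by 0.76 (adjusted p = 0.0256), where 6.66% of all genes were called lower. Without control replicate 3, 0 of all genes were called in AAV9-GFP against control, so neither call held in that fit. Their summed normalized counts were 3359 and 4371 in the control, 3201 to 4099 with AAV9-GFP, 2351 to 2751 with AAV9-AIPL1co and 1338 to 1621 with AAV9-AIPL1wt. The AAV9-AIPL1wt libraries, lowest in these markers, had 7.55 to 13.1 normalized counts of GAS1, and the AAV9-AIPL1co libraries had 104 to 119. The part of proliferation in the GAS1 difference was not tested.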

How the data were processed

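Poly(A) RNA of ARPE-19 cells was sequenced in 12 libraries. The authors aligned the reads with STAR 2.7.10b to GRCh38 with 4 vector sequences and counted them per gene with HTSeq 0.11.1, according to the submitters' processing notes, and the deposited values are raw counts. STAR's own unstranded counts were equal to them in all 753132 values compared. Reads with no feature were 4.64% to 7.29% of a library, ambiguous reads 7.89% to 8.79% and reads with no unique alignment 13.3% to 24.5%. These were left out, as were the vector entries.

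In R 4.3.3, edgeR 4.0.16 kept 13896 genes by filterByExpr with its minimum of 10 counts, applied TMM factors to 11 libraries, and a quasi-likelihood fit was made with group as its only term (common biological coefficient of variation 0.101, 7 residual degrees of freedom). Control replicate 1 was left out, as in the study. The Benjamini-Hochberg adjustment ran across every gene tested. Standard errors are log2 fold changes divided by the square root of F. The 95% intervals are a normal approximation from these standard errors. They take no account of the limited degrees of freedom and so are somewhat narrow. The fit was tested on simulated data. Gene positions and exon lengths are from Gencode 44, matched for 62686 genes, and promoter sequences are from RefSeq.

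The members and gene lists were chosen with earlier results of these data known. Named genes were the members, up to 4 per list with the largest log2 fold change at an adjusted p under 0.05 against the control with either AIPL1 vector, or else with the highest mean, and the 5 most like GAS1. A gene that the rule gave is not reported here. Alternatives were DESeq2 1.42.0, limma voom (limma 3.58.1), other scalings, no filter, file date or replicate as a term, and leaving out libraries.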

Additional observations from a re-analysis of the deposited data

Results flagged for a closer look

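Control replicate 1 was not used in the fit, and the study had dropped it because it lay apart from the other controls. Of 63 named genes, 7 had at least 10 counts in it and more than 2-fold the normalized counts of the higher of the other controls. Genes lower there were not searched. The share of all genes that pass this rule was not computed, so the 7 cannot be called particular to this list. GLI1 was at 8.19, against 1.88 and 3.30. MERTK, a receptor tyrosine kinase that binds the growth arrest gene product GAS6, was at 39.3, against 6.59 and 4.13. GAS2L3, a cytoskeletal linker of the growth arrest-specific family by name, was at 142, against 44.3 and 70.2. The non-coding gene DISC1FP1, which followed GAS1 in the other libraries, was at 99.1, against 17.0 and 18.2, and TUT7, a neighbour of GAS1, was at 471, against 186 and 186. Among the markers of other cell types, COL1A1 was at 168, against 36.7 and 27.2, and MAP2 at 1279, against 525 and 400. In GAS1 the same library was lower than the others, at 4.09 against 12.2 and 13.2. Groups of 3 libraries were not searched for outlying samples.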

How the results depend on the processing

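Over the alternatives, 777 of 810 values of the partners stayed on their side of the threshold, 24 lost the call, 9 gained it and 0 called values changed sign, while 35 values called in neither fit did. Among the other genes named by list, 2780 of 2935 stayed, with 110 lost, 45 gained, 0 called values changing sign and 141 uncalled ones doing so. BOC and SMO in AAV9-AIPL1wt against control and AAV9-GFP stayed called under every alternative run. The GAS1 log2 fold change of 3.11 against control was 3.50 with all 12 libraries, 3.64 with the file date as a further term, 2.83 with GC offsets and 2.92 in the replicate block with GC offsets. Leaving out single libraries gave 3.06 to 3.18 against control, 2.47 to 2.82 against AAV9-GFP and 3.08 to 3.44 against AAV9-AIPL1wt. The 26 Hedgehog genes called in AAV9-AIPL1co against control became 15 to 32 without single libraries, the 32 in AAV9-AIPL1wt against control 21 to 33, the 29 in AAV9-AIPL1wt against AAV9-GFP 24 to 33, and the 23 between the AIPL1 vectors 19 to 26. The 17 in AAV9-AIPL1co against AAV9-GFP became 9 with all 12 libraries, 8 with the file date as well, and 11 to 23 without single libraries, with 11 without AAV9-GFP replicate 3 or AAV9-AIPL1co replicate 2. The 1 gene called in AAV9-GFP against control became 3 with all 12 libraries or no filter, 2 with all 12 and the file date, library size only, DESeq2 or limma voom, 0 with the file date or the replicate block, and 0 to 7 without single libraries, with 5 and 7 without AAV9-AIPL1wt replicate 1 and 2. Calls over all genes moved in the same fits. Without single libraries, the 6508 in AAV9-AIPL1co against control became 4207 to 7355 and the 7828 in AAV9-AIPL1wt against control 5715 to 7767. The 4300 in AAV9-AIPL1co against AAV9-GFP became 2162 with all 12 libraries and 2099 with the file date as well. The 1245 in AAV9-GFP against control became 0 to 2674 without single libraries. The cause of these moves was not tested. Over all genes, the share called higher in AAV9-GFP against control was 25.6% of 1245 calls, 38.5% with relative log expression scaling, 44.9% with DESeq2, and 41.3% of 75 calls with GC offsets. The read-weighted GC content was 49.3% to 49.7% in the control libraries and 50.2% to 50.9% in the transduced ones. The values did not settle whether replicate numbers pair the samples. Among 15 same-number pairs, deviations from the group means had correlations from -0.0713 to 0.197, and 3 were above 0.1. In addition, 6 of 11 libraries were closest to their own number. The replicate block gave 29 Hedgehog genes called in AAV9-AIPL1co against control, beside 6538 of all genes. Depth limits GLI1, GLI2 and the ligands. Both control libraries are from the later file date, and comparisons with the control were not run within that date, but with the date as a term GAS1 was at 3.15 and 25 Hedgehog genes were called in AAV9-AIPL1co against control. That fit called 5911 of all genes in the same comparison.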

Other observations

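The GDNF family, whose co-receptors GAS1 resembles, was read from 10 genes, of which 3 were tested, and with either AIPL1 vector 2 were higher and 1 lower than in the control. These are 66.7% and 33.3% of a list of only 3 genes. The shares of all genes were 22.4% and 24.5% with AAV9-AIPL1co and 26.4% and 30.0% with AAV9-AIPL1wt. By limma voom, 1 was higher and 1 lower with AAV9-AIPL1wt. GDNF, a secreted survival factor of neurons, had 49.4, 90.3 and 91.6 normalized counts with AAV9-AIPL1co, 7.87, 31.4 and 32.4 with AAV9-AIPL1wt, 19.5, 32.3 and 18.9 with AAV9-GFP, and 11.3 and 9.08 in the control. The AAV9-AIPL1co libraries were above all others, as in GAS1, and AAV9-AIPL1wt overlapped with the remaining groups. It rose by 2.91 ± 0.43 (SE, adjusted p = 3.27e-05) with AAV9-AIPL1co and by 1.29 ± 0.50 (SE, adjusted p = 0.0351) with AAV9-AIPL1wt against the control. The difference of AAV9-AIPL1co from AAV9-AIPL1wt was 1.62 ± 0.33 (SE, adjusted p = 0.000781). PSPN, another ligand of the family, rose by 0.82 (adjusted p = 0.0075) with AAV9-AIPL1co and by 1.63 (adjusted p = 7.84e-06) with AAV9-AIPL1wt. GFRA1, the GDNF co-receptor, fell by 0.69 (adjusted p = 6.4e-05) and 0.85 (adjusted p = 4.39e-06). RET, the kinase through which these co-receptors signal, was too low to be tested, with at most 2.62 normalized counts in a library, as was the ligand ARTN.

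Of 10 other growth arrest-specific genes and their receptors, 3 were higher and 2 lower with AAV9-AIPL1co, and 2 and 3 with AAV9-AIPL1wt, against the control. All 10 were tested, so these are 30% and 20% beside 22.4% and 24.5% of all genes, and 20% and 30% beside 26.4% and 30.0%. MERTK rose by 1.84 ± 0.44 (SE, adjusted p = 0.00216) with AAV9-AIPL1co, from 6.59 and 4.13 normalized counts in the control to 17.7, 18.1 and 22.3, and had a difference of 0.75 (adjusted p = 0.217) with AAV9-AIPL1wt. Control replicate 1, outside the fit, had 39.3 normalized counts of MERTK, above the AAV9-AIPL1co libraries. AXL, a receptor of the same family, fell by 0.86 ± 0.10 (SE, adjusted p = 4e-06) and 0.80 ± 0.10 (SE, adjusted p = 4.54e-06). GAS2L1 rose by 0.81 (adjusted p = 0.000106) and 0.98 (adjusted p = 8.98e-06) with the 2 vectors, and GAS2L3 by 0.87 (adjusted p = 0.00605) and 0.67 (adjusted p = 0.0258). Control replicate 1 had 142 normalized counts of GAS2L3, more than 2-fold the higher of the control libraries in the fit. The p-values in these paragraphs come from edgeR's quasi-likelihood test with adjustment over all genes tested.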
